A study of Mus musculus with 6 samples.

Results

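The myosin, tropomyosin and troponin genes were chosen by symbol, as the numbered myosin heavy chains (Myh), myosin light chains (Myl), lettered unconventional myosins (Myo), tropomyosins (Tpm1 to Tpm4) and troponins (Tnnc, Tnni and Tnnt). The symbol rule found 56 genes among 27179 in the table. Of these, 28 were present, defined as at least 1 CPM (read counts scaled to library size, a log2 CPM of 0) in at least 3 of the 6 libraries, against 13018 present genes in all. Presence used the level over all 6 libraries and not the group of a library. The cells were LT-HSC, long-term haematopoietic stem cells, which renew themselves and give rise to each blood lineage, sorted from marrow as Lin- Sca-1+ c-Kit+ CD48- CD150+.

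Both groups were adult C57BL/6 mice, 8 to 12 weeks old, homozygous for a conditional allele of Prdm16 (Prdm16 cko/cko), a zinc-finger transcriptional regulator. The knockout group also carried Mx1-Cre (Tg/+), and the control group did not (+/+). Control and knockout mice alike were given pIpC (5 injections), which mimics viral RNA and so turns on the interferon-responsive Mx1 promoter, and cells were taken 5 weeks later. The Mx1 promoter responds in many cell types, so deletion was not limited to stem cells. Each genotype was represented by a pool of marrow from 5 mice, sorted as 3 technical replicates. The p-values below therefore measure the spread between portions of 1 sort per genotype and not between animals.

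Libraries held 36747729 to 43743795 reads, so 1 read was worth 0.0229 to 0.0271 CPM. Prdm16, the targeted gene, had 1630, 1860 and 1381 control reads against 323, 388 and 643 knockout reads, a log2 fold change of -1.93 (SE 0.27, limma adjusted p = 0.00829). All 9 LT-HSC markers examined were present, and their summed level was 2260 to 2300 CPM in control and 2200 to 2400 CPM in knockout. Of 9 neutrophil markers, 9 were called higher in knockout, with sums of 94.5 to 107 CPM in control and 869 to 1080 CPM in knockout. Megakaryocyte and platelet markers summed to 976 to 1060 CPM in control and 1390 to 1580 CPM in knockout, with 2 of 10 called higher, and the platelet collagen receptor Gp6 had 8 reads in knockout replicate 2 and 0 in the others. B and plasma cell markers summed to 59.1 to 66.1 CPM in control and 230.0 to 245 CPM in knockout, with 1 of 6 called higher. Smooth muscle and pericyte markers summed to 11.1 to 17.5 and 10.4 to 25.2 CPM, with Rgs5 and Des at 0 reads in all 6 libraries. Skeletal and heart muscle markers summed to 5.53 to 14.1 and 4.84 to 10.5 CPM, with Mb, Casq2 and Des at 0 reads throughout. Erythroid markers summed to 45.8 to 50.5 CPM in control and 60.7 to 75.1 CPM in knockout, with 5 of 6 present and 0 called. Macrophage markers summed to 21.1 to 38.5 and 34.5 to 35.8 CPM, with 5 of 7 present and 0 called. Among them Adgre1 was at 0 reads in control and at 198, 188 and 274 reads in the knockout replicates. Mertk went the other way, with 249, 109 and 92 control reads against 7, 27 and 0 knockout reads. Endothelial markers summed to 150.0 to 193 and 161 to 216 CPM, with 4 of 5 present and 0 called. The part of these other cell types in the results below was not tested, and in bulk samples fewer cells of a type and less RNA per cell cannot be told apart.

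Myosins are motors that pull on actin filaments. A class II myosin joins a pair of heavy chains, which hold the motor, with essential light chains, which stiffen the neck, and regulatory light chains, whose phosphorylation switches nonmuscle and smooth muscle myosin on. In nonmuscle cells this motor drives cortical tension, migration and the closing of the cleavage furrow. Unconventional myosins carry cargo or link membrane to actin. Tropomyosins coil along the actin filament and set which proteins can bind it. Troponin, a complex of a calcium sensor (troponin C), an inhibitor (troponin I) and a tropomyosin-binding subunit (troponin T), makes contraction of striated muscle depend on calcium.

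The member that passed the test was Myl10, a regulatory light chain gene first described in precursor lymphocytes and also known as PLRLC. It lies on chromosome 5, 136688892 to 136701857 (gene ID 59310, GRCm38.p6, which mm10 names). RefSeq promoter windows of 300 bases, from 250 before to 50 after a start, were available for 48 of the 56 members and 26 of the 28 present ones. The 3 windows of Myl10 are shown because the deposited gene total does not separate its starts, and that of Myh14, a nonmuscle heavy chain gene, because it had reads in the control group alone. All 3 Myl10 windows lie inside the gene span given above, and none covers the first base of that span. Capitals mark matches on either strand to the letters TGANTCA for AP-1, AGATAA for GATA factors, CCGGAA for ETS factors, CAGCTG for the E box, CCAAT for the CCAAT box and TATAAA for the TATA box, or to the CArG box, the element of serum response factor. Sequences are from RefSeq GRCm38.p6, and positions count from each start. No match in these windows overlapped a match to another motif.
Myl10, chr5:136692896-136693195, plus strand: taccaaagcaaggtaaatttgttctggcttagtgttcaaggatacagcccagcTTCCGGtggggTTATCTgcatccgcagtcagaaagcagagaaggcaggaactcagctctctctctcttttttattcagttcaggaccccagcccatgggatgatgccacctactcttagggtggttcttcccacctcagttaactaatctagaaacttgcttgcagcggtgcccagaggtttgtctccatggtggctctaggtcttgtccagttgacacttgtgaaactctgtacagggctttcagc
Myl10, chr5:136693426-136693725, plus strand: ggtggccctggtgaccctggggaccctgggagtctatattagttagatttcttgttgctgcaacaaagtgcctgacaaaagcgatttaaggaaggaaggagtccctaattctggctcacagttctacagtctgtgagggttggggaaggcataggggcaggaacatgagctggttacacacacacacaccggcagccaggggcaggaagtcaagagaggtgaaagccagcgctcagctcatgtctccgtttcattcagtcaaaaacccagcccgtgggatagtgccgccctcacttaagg
Myl10, chr5:136693927-136694226, plus strand: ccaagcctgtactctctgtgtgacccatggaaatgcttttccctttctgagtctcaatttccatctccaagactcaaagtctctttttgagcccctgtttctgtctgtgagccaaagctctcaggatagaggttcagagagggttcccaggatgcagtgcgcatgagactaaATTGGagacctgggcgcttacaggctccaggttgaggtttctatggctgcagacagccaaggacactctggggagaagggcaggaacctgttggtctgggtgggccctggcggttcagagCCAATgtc
Myh14, chr7:44670794-44671093, minus strand: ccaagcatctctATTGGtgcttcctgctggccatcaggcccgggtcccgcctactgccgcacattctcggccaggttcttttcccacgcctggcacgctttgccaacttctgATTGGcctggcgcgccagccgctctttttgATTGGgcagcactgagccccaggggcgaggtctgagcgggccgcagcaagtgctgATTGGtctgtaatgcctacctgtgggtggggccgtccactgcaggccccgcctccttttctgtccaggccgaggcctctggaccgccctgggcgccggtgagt

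The first Myl10 window held an ETS match at -197 and a GATA match at -186, the second held no match, and the third held CCAAT boxes at -78 and 43. The Myh14 window held CCAAT boxes at -238, -138, -108 and -53, each on the opposite strand. Of all 32851 windows in the table, 14.9% held the ETS letters, 11.2% the GATA letters, 37.4% a CCAAT box, 7.8% the AP-1 letters, 16.3% the E box, 13.6% the TATA box and 1.6% a CArG box. Of 35 windows of present members, 12 held an E box (34.3%), 10 a CCAAT box (28.6%), 8 the ETS letters (22.9%), 3 the AP-1 letters (8.6%), 3 a TATA box (8.6%), 2 the GATA letters (5.7%) and 2 a CArG box (5.7%). These matches describe letters and not binding.

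Of the 28 present members, 1 was called lower in knockout and 0 were called higher (limma, Benjamini-Hochberg adjusted p below 0.05 over 13018 genes). Over all tested genes 0.292% were called lower and 0.407% higher, 0.699% together, so the members' count is a single gene. At an unadjusted p under 0.05 there were 2 members higher and 3 lower, where 10.3% of all tested genes had such a p, and voom on recovered reads also called 0 members higher and 1 lower. The 3 control and 3 knockout values did not overlap in 10 members, 4 higher and 6 lower, where 16.5% of all tested genes did not overlap (8.52% with knockout above and 8.01% with knockout below). Among the 10 was Myh14, which passed presence through the control libraries alone and so had to differ. The median log2 fold change was -0.06 over the present members, also with Myh14 set at its bound, and 0.003 over all tested genes. For 11 of the 28 the 95% interval of the log2 fold change lay within 1.5-fold in both directions, as it did for 44.2% of all tested genes.

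**Figure D1:**
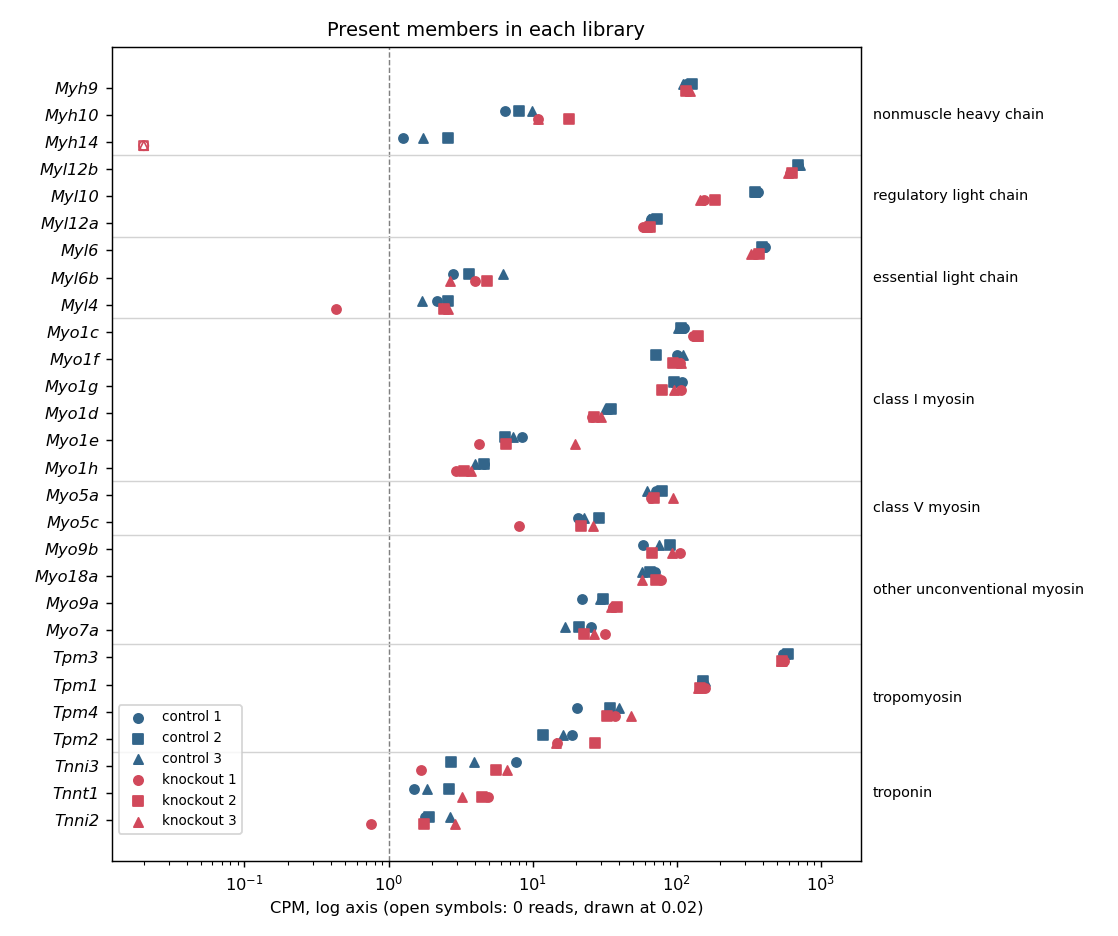
CPM of the 28 present members in each of the 6 libraries, on a log axis and grouped by family, with the presence threshold of 1 CPM dashed. Control and knockout symbols lie close together for most members, stand apart for Myl10, and for Myh14 the 3 knockout libraries are at 0 reads.

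**Figure D2:**
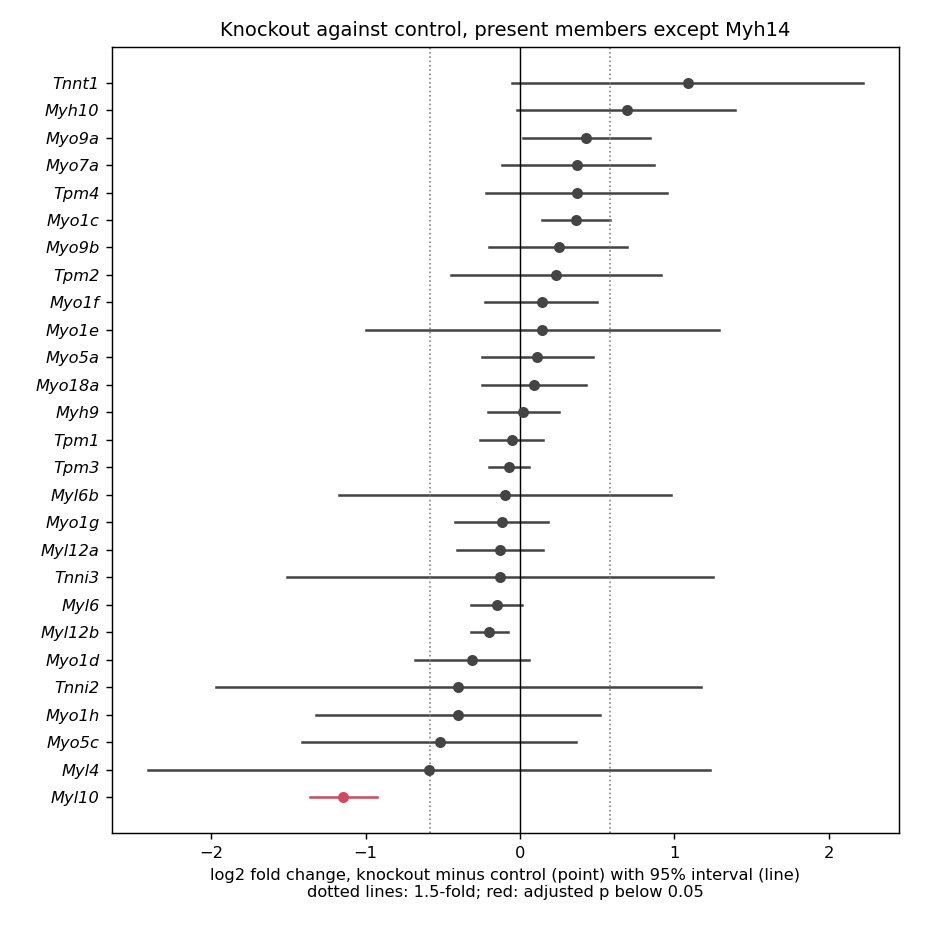
Log2 fold change, knockout minus control, with its 95% interval from limma, for the present members other than Myh14, whose fitted value is no measure of size because the knockout libraries had 0 reads. Myl10 is the red point at -1.15, and the dotted lines mark 1.5-fold.

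Regulatory light chains held the called gene. Myl10 stood at 364.8, 349.4 and 349.7 CPM in control and 153.8, 183.3 and 146.1 CPM in knockout. Each knockout library was thus below each control library, and the gap between groups was wider than the spread in either. Myl10 fell from 354.6 ± 8.77 to 161.1 ± 19.6 CPM (mean ± SD, n = 3). The limma log2 fold change was -1.15 (SE 0.10, 95% interval -1.36 to -0.93, limma adjusted p = 0.000359), or 2.21-fold lower. By p-value it ranked 13 among the 13018 tested genes. Its mean CPM, not scaled for length, was above that of 97.0% of tested genes in control and of 89.1% in knockout. GENCODE exons of Myl10 overlapped no exon of another gene. There were 10 tested genes within 500 kb of Myl10, a set examined after its value was seen, and 0 of the 10 were called, with log2 fold changes from -0.32 (Trim56) to 0.34 (Sh2b2).

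Myl12b and Myl12a, the regulatory light chains of nonmuscle myosin II, are neighbours on chromosome 17 (70973963 to 71002533) and share 462 exonic bases, so reads of one could be counted to the other. Myl12b was at 692.2, 696.3 and 715.8 CPM in control and 610.1, 634.4 and 589.5 CPM in knockout. Its groups did not overlap, but the difference was small and did not pass the test (log2 fold change -0.20, SE 0.06, 95% interval -0.32 to -0.08, limma adjusted p = 0.219). Myl12a, at 66.2, 73.2 and 64.2 CPM against 58.0, 65.3 and 62.7 CPM, overlapped between groups (log2 fold change -0.13, 95% interval -0.41 to 0.15). Within a library, Myl10 had 0.489 to 0.527 reads for each Myl12b read in control and 0.248 to 0.289 in knockout. That ratio does not depend on library scaling, and its ranges did not meet.

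The other 3 regulatory light chains that the symbol rule takes were not present. Mylpf, a regulatory light chain outside the rule, was at 2.84 to 3.64 CPM in control and 3.52 to 5.055 CPM in knockout. It is left out of the family sums and shares below. Myl9, the regulatory light chain of smooth muscle that is also abundant in platelets, had 27 reads in knockout replicate 2 and 0 in each other library. Myl2, of heart ventricle and slow muscle, had 40, 0 and 6 reads in control and 0, 10 and 9 in knockout. Myl7, of the atrium, had 0 reads in all 6. A count of 0 allows up to 3 reads, or 0.0687 to 0.0814 CPM depending on the library, and these limits cover counting error only.

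**Figure D3:**
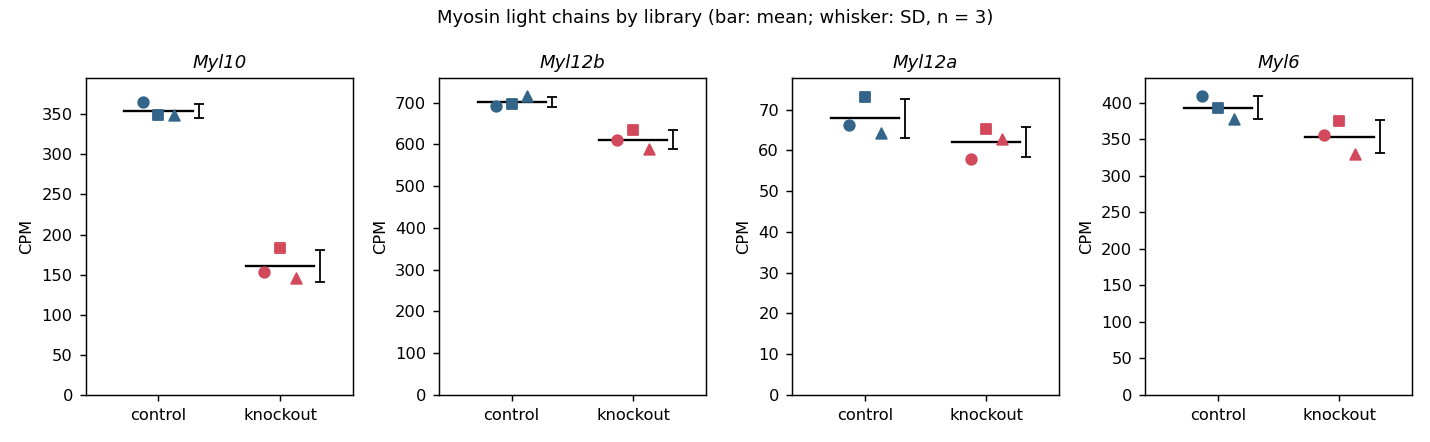
CPM of 4 light chain genes in each library, with the group mean as a bar and the SD as a whisker (n = 3), each axis starting at 0. Myl10 drops from 354.6 to 161.1 CPM, while Myl12b, Myl12a and Myl6 differ much less between groups.

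Levels of different genes were compared as CPM per kb of exon, using the union of GENCODE exons (1203 bases for Myl10 and 3232 for Myl12b). RefSeq draws a longer gene span for Myl10 than GENCODE, and the gene models used for the deposited counts were not given in the sources used, so the order below depends on this choice. On that scale Myl10 was the highest of the 56 members in control, at 290.0 to 303 CPM per kb, followed by Myl12b at 214 to 221, Myl6 at 118 to 128 and Tpm3 at 89.4 to 97.1. These 4 ranges did not overlap in control. In CPM without length, control means of Myl12b (701.4), Tpm3 (568.0) and Myl6 (393.2) were above that of Myl10 (354.6). The first rank of Myl10 and its share below thus rest on the exon lengths used, which were 3187 bases for Myl6 and 6085 for Tpm3. In knockout Myl12b came first at 182 to 196 CPM per kb, Myl10 second at 121 to 152 with Myl6 below it at 103 to 118. Myl10 made up 54.7% to 56.4% of the summed CPM per kb of the regulatory light chains in the control libraries and 37.7% to 41.3% in the knockout libraries. The summed level of that family was 528 to 538 CPM per kb in control and 323 to 369 in knockout, and without Myl10 it was 234 to 241 and 201 to 216.

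**Figure D4:**
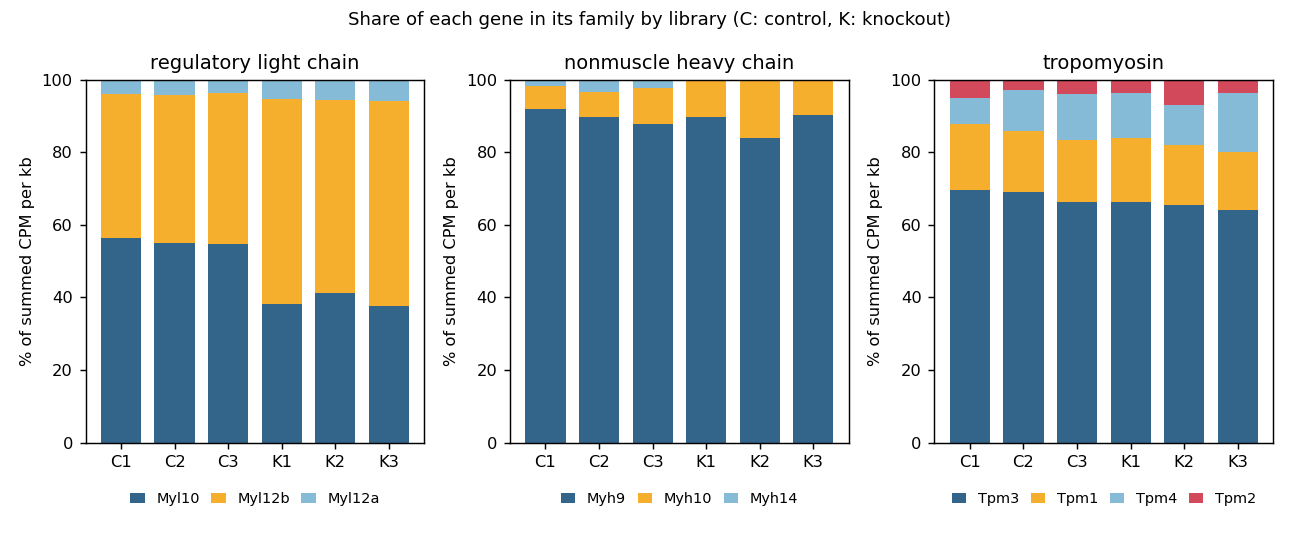
Share of each gene in the summed CPM per kb of its family, for 3 control (C) and 3 knockout (K) libraries. Shares depend on the GENCODE exon lengths used. The Myl10 share is 54.7% to 56.4% in control and 37.7% to 41.3% in knockout, while Myh9 and Tpm3 lead their families in all 6 libraries.

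Among essential light chains, Myl6, the partner of nonmuscle and smooth muscle myosin, carried 97.0% to 98.2% of the summed CPM per kb. It was at 408.6, 393.4 and 377.6 CPM in control and 355.4, 375.4 and 329.7 CPM in knockout. Its groups were separate by a narrow margin and the difference did not pass the test (log2 fold change -0.15, SE 0.07, limma adjusted p = 0.507). Its neighbour on chromosome 10, Myl6b, was at 2.82 to 6.19 CPM in control and 2.68 to 4.80 CPM in knockout. Myl4, the essential light chain of atrium and of embryonic muscle, was at 1.70 to 2.58 CPM in control. In knockout it was at 0.433, 2.42 and 2.59 CPM, so that the low value belonged to replicate 1. Myl1, of fast skeletal muscle, had 27 reads in control replicate 1 and 1 read in knockout replicate 3, and Myl3, of the ventricle, had 0 reads throughout.

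All 3 nonmuscle heavy chains were present, and their summed level was 9.72 to 11 CPM per kb in control and 10.1 to 10.7 in knockout. Myh9, the heavy chain of nonmuscle myosin IIA, was at 115.5, 127.2 and 111 CPM in control and 117.2, 115.6 and 124.3 CPM in knockout. The groups overlapped, and the 95% interval of the log2 fold change ran from -0.21 to 0.25 (estimate 0.02). It carried 87.9% to 91.9% of the heavy chain CPM per kb in control and 83.9% to 90.2% in knockout.

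Myh10, the heavy chain of nonmuscle myosin IIB, was at 6.41, 8.08 and 9.90 CPM in control and 10.9, 17.96 and 10.99 CPM in knockout. Each knockout library was above each control library, with replicate 2 the highest, yet the difference did not pass the test (log2 fold change 0.69, SE 0.32, 95% interval -0.02 to 1.39, limma adjusted p = 0.489). Reads of Myh10 per read of Myh9 were 0.056 to 0.089 in control and 0.088 to 0.155 in knockout, ranges that met.

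Myh14, the heavy chain of nonmuscle myosin IIC (chromosome 7, 44605803 to 44670872), had 51, 96 and 76 control reads and 0 reads in each knockout library. The floor of 3 reads per library was 0.0732 CPM as the mean of the knockout group. The control mean of Myh14, 1.87 ± 0.680 CPM, was 25.5-fold above that floor. This ratio covers counting error in knockout only and leaves out the spread in control, where the lowest library was at 1.26 CPM. Single libraries of other members held similar counts beside 0 in the rest of their group, such as 74 reads for Myo1a in control replicate 3. Myh14 did not pass the test (limma adjusted p = 0.332). The fit without the mean-variance trend did call it (limma adjusted p = 0.000475), but its knockout values are all the offset at 0 reads and it was present through control alone, so that call adds no support. Its control reads were few, and 60 exonic bases are shared with the gene 2310016G11Rik. That gene had 10 reads in 1 control library and 12 in 1 knockout library.

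None of the 10 muscle heavy chains was present. Of these, 8, namely Myh1, Myh2, Myh4, Myh6, Myh7, Myh8, Myh13 and Myh15, had 0 reads in all 6 libraries. Myh3, of embryonic skeletal muscle, had 60 reads in knockout replicate 3 and 0 in the others, and Myh11, of smooth muscle, had 2 reads in control replicate 3 and 7 in knockout replicate 3. A group of 6 of these genes, Myh3, Myh2, Myh1, Myh4, Myh8 and Myh13, forms a cluster on chromosome 11 (67078273 to 67371587) in which the 60 Myh3 reads were the only ones. Myh6 and Myh7, the cardiac pair, adjoin on chromosome 14 (54941921 to 54994626).

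Of 8 class I myosins, which tether membrane to actin, 6 were present and 0 were called. Myo1c, a regulator of membrane tension and vesicle delivery, was at 112.7, 106.6 and 102.5 CPM in control and 130.5, 141.4 and 141.7 CPM in knockout. Its groups did not overlap, and the fitted difference was 1.29-fold without passing the test (log2 fold change 0.36, SE 0.10, 95% interval 0.14 to 0.58, limma adjusted p = 0.215). Myo1f, found mainly in cells of the immune system, was at 101.2, 71.7 and 111.2 CPM against 104.8, 94.9 and 107.7 CPM, with overlap. Myo1g, a haematopoietic class I myosin, was at 109.8, 96.3 and 98.8 CPM against 107.3, 78.8 and 95.9 CPM, also with overlap. Myo1d was lower in each knockout library than in each control library, at 31.9 to 35.1 and 25.95 to 29.62 CPM (log2 fold change -0.31, limma adjusted p = 0.559). Myo1e, a long-tailed class I myosin, ranged from 4.22 to 19.8 CPM within the knockout group alone. Myo1h, at 4.01 to 4.63 CPM in control and 2.95 to 3.75 CPM in knockout, shares 1530 exonic bases with Kctd10, a gene with 3355 to 4476 reads a library, so its reads cannot be assigned to it with certainty. Myo1a was not present, and its 74 reads were all in control replicate 3.

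Class V myosins are cargo carriers. Myo5a, the melanosome and vesicle carrier, was at 71.5, 78.7 and 61.9 CPM in control and 66.4, 69.9 and 94.2 CPM in knockout, with overlap (95% interval of the log2 fold change -0.25 to 0.47). Its neighbour on chromosome 9, Myo5c, known from secretory epithelia, was at 20.6, 29.0 and 22.8 CPM in control and 8.01, 21.7 and 26.3 CPM in knockout. The lowest value was that of knockout replicate 1, and the log2 fold change of -0.52 (SE 0.40) became 0.00 without that library. Myo5b was not present, with 3 to 21 reads in the control libraries and 28 reads in knockout replicate 2 alone.

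The other unconventional myosins had 4 of 9 members present, each with a positive estimate and 0 called. Over all tested genes 50.5% had a positive estimate. Myo9a, a class IX myosin, was at 22.0, 30.6 and 29.6 CPM in control and 36.4, 38.3 and 35.1 CPM in knockout. Its groups did not overlap (log2 fold change 0.43, SE 0.18, limma adjusted p = 0.453). Myo9b, the other class IX myosin, was at 58.7, 90.1 and 75.1 CPM against 106.1, 67.8 and 92.4 CPM, with overlap. Myo18a, a myosin with little motor activity that binds the Golgi, was at 70.5, 64.9 and 57.8 CPM against 77.5, 71.6 and 57.3 CPM, also with overlap. Myo7a, the myosin of hair cell stereocilia, was at 16.9 to 25.3 CPM in control and 22.9 to 31.8 CPM in knockout. Of the 5 not present, Myo3b and Myo7b had 0 reads in all libraries, Myo3a had 1 read in all, Myo18b had 16 reads in control replicate 1, and Myo15b had 80 reads in control replicate 1 and 6 in knockout replicate 2.

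All 4 tropomyosins were present in all 6 libraries, 0 were called, and the groups overlapped for each. Tpm3 led at 544.2, 590.9 and 568.7 CPM in control and 552.6, 539.2 and 533 CPM in knockout. The 95% interval of its log2 fold change was -0.20 to 0.06, and that of Tpm1, at 150.7 to 156.7 and 141.7 to 156.8 CPM, was -0.26 to 0.15. Tpm4, the low-molecular-weight tropomyosin that is abundant in platelets, was at 20.3, 34.3 and 39.8 CPM in control and 37.3, 32.8 and 48.5 CPM in knockout (log2 fold change 0.37, SE 0.26). Tpm2 ranged from 11.7 to 18.9 CPM in control and 14.6 to 27.1 CPM in knockout. In CPM per kb, Tpm3 made up 66.2% to 69.7% of the tropomyosins in control and 64.2% to 66.3% in knockout, Tpm1 16.8% to 18.1% and 16.0% to 17.6%, Tpm4 7.18% to 12.8% and 11% to 16.1%, and Tpm2 2.87% to 5.05% and 3.67% to 6.88%. The summed level was 128 to 141 and 135 to 137 CPM per kb. Each Tpm gene makes several muscle and nonmuscle isoforms, which gene totals do not separate, and RefSeq lists related sequences of Tpm3 whose reads could be shared with it.

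Troponins were at no more than 7.72 CPM in any library, and neither troponin C gene was present. Of the 8, the 3 present were Tnni3 (cardiac troponin I), Tnni2 (fast skeletal troponin I) and Tnnt1 (slow skeletal troponin T). Tnnt1 (chromosome 7, 4504569 to 4515975) was at 1.51, 2.63 and 1.86 CPM in control and 4.90, 4.47 and 3.25 CPM in knockout. In reads these were 61, 97 and 81 against 181, 192 and 142, with each knockout library above each control library. The log2 fold change of 1.09 (SE 0.51, 95% interval -0.05 to 2.22) did not pass the test (limma adjusted p = 0.497). Tnni3, its neighbour, overlapped between groups at 7.72, 2.71 and 3.92 CPM against 1.68, 5.61 and 6.64 CPM, and it shares 86 exonic bases with Dnaaf3. Tnni2 was at 1.78, 1.90 and 2.68 CPM in control and 0.757, 1.77 and 2.91 CPM in knockout, with replicate 1 the lowest. In CPM, knockout replicate 1 was also the lowest library for Tnni3, Myl4, Myo5c, Myo1d, Myo1e, Myo1h and Myl12a. The share of all tested genes with their lowest value in that library was not counted, so the list does not mark it as unusual.

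The presence threshold fell within the troponins and the rarest myosins. It rests on the library that ranks 3 by level. Just inside it, that library was at 1.26 CPM for Myh14 and 1.90 CPM for Tnni2. Just outside, it was at 0.718 CPM for Tnnt3 (fast skeletal troponin T). Tnnc1, the slow and cardiac troponin C, had 2 reads in 1 control library and 14 and 34 reads in a pair of knockout libraries, and Tnnc2, the fast one, had 24 reads in control replicate 1. The exons of Tnnc2 overlap 592 bases of Ube2c, a gene with 4104 to 5175 reads a library. Tnni1 had 31 reads in knockout replicate 2 and Tnnt2 had 0 throughout. Of the 28 members not present, 13 had 0 reads in all 6 libraries, 22 reached 1 CPM in no library, 5 in 1 library and 1 in 2 libraries.

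Genes that act on myosin and the thin filament were followed as lists. Of 66 such genes in the table, 45 were tested and 0 were called in either direction (limma), with 9 at an unadjusted p under 0.05 (10.3% of all tested genes), 0 called by voom on recovered reads and a median log2 fold change of -0.01. Thin-filament partners had 5 of 13 tested. Tmod1, which caps the pointed end of actin filaments, was at 21.8, 17.6 and 18.6 CPM in control and 10.04, 4.92 and 7.78 CPM in knockout (log2 fold change -1.41, SE 0.31, limma adjusted p = 0.0979). Cnn3, an actin-binding calponin, was at 4.33, 2.31 and 2.66 CPM against 13.99, 8.01 and 10.51 CPM (log2 fold change 1.82, SE 0.40, limma adjusted p = 0.104). Neither gene's groups overlapped, and with log2(CPM + 5) both passed (limma adjusted p = 0.0478 for Tmod1 and 0.0386 for Cnn3). Tagln2, a calponin-related actin binder, was at 535.2 to 558.5 CPM in control and 467.7 to 511.4 CPM in knockout (log2 fold change -0.17, limma adjusted p = 0.359).

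Of 16 tested myosin activators 0 were called. Mylk, the kinase that phosphorylates regulatory light chains, was at 32.2, 32.8 and 32.8 CPM in control and 10.1, 23.9 and 15.3 CPM in knockout. Its groups did not overlap, but the knockout values ranged widely and the difference did not pass the test (log2 fold change -1.08, SE 0.29, limma adjusted p = 0.200). Pak2, a kinase of the cytoskeleton, and Cit, the citron kinase of cytokinesis, had log2 fold changes of 0.31 (SE 0.13) and -0.35 (SE 0.16), neither called. A list of the myosin phosphatase, its inhibitors and Mylip had 6 tested genes, of which 0 were called. The catalytic subunit Ppp1cb was at 148.6 to 160.3 CPM in control and 175.4 to 180.5 CPM in knockout (log2 fold change 0.21, SE 0.09, limma adjusted p = 0.441). In the same list the inhibitor Ppp1r14b was at 0.15 and Mylip, which targets regulatory light chains for degradation, at -0.19 on the log2 fold change scale.

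Calmodulin genes, which supply the calcium sensor of Mylk, had 4 tested and 0 called, with log2 fold changes of -0.13 for Calm2 and -0.25 for Calm3. Actb and Actg1, the cytoplasmic actins, were the 2 of 6 actins tested and had log2 fold changes of -0.08 (SE 0.05) and 0.02 (SE 0.08). Of 10 tested crosslinkers and turnover factors 0 were called, with Actn1, an alpha-actinin, at 12.9 to 17.9 CPM in control and 6.33 to 11.5 CPM in knockout (log2 fold change -0.76, SE 0.30, limma adjusted p = 0.416). The filamin Flna had a log2 fold change of 0.07. Unc45a and Unc45b, the myosin chaperones, stood at 0.30 and 0.23 on that scale without being called. Of the 7 myosin genes with other symbols 5 were tested and 0 called, among them Myo19, a mitochondrial myosin, at -1.01 (SE 0.51), Myo6, which walks toward the pointed end, at 0.72 (SE 0.71), and Mylpf, a fast skeletal regulatory light chain, at 0.40 (SE 0.43).

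**Figure D5:**
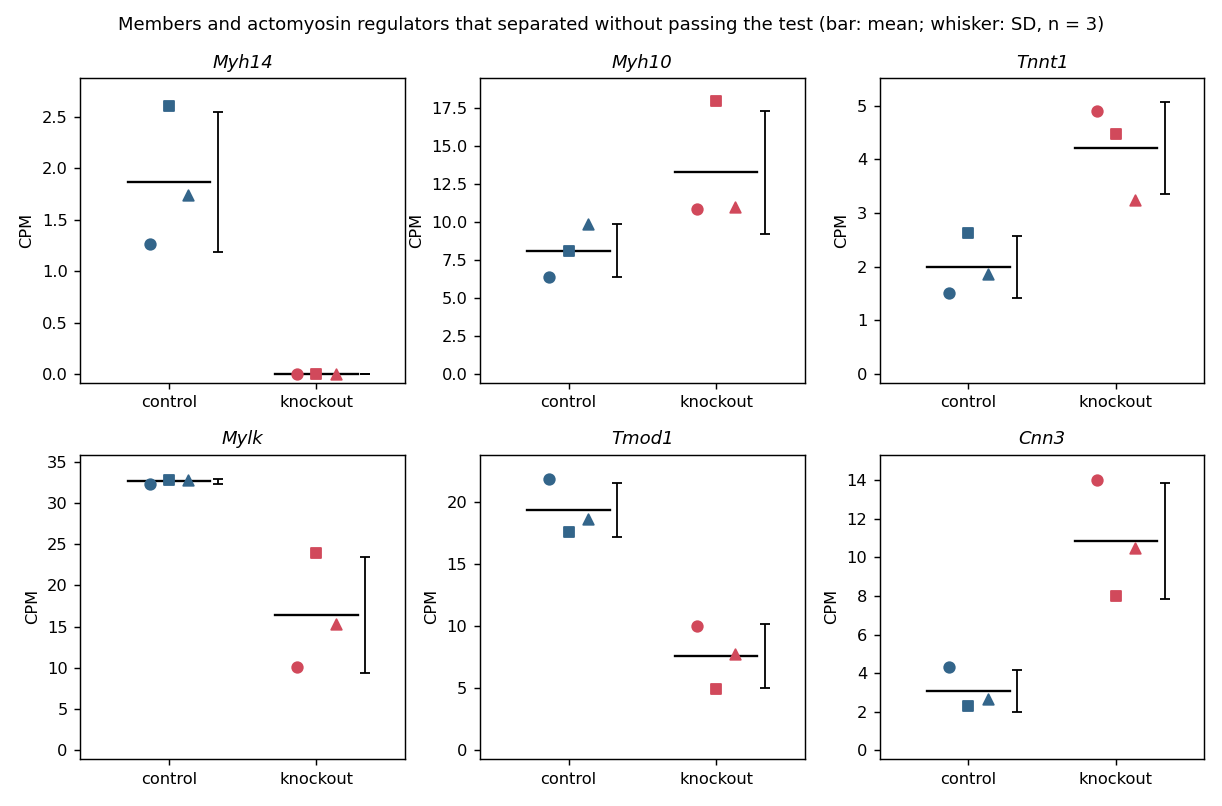
CPM by library of 3 members (Myh14, Myh10 and Tnnt1) and 3 regulators (Mylk, Tmod1 and Cnn3), with group mean and SD (n = 3). The genes were picked because their control and knockout points do not overlap, so the separation in all 6 panels was fixed by that choice. Among all tested genes 16.5% did not overlap. The limma adjusted p-values of the main fit run from 0.0979 to 0.497.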

How the data were processed

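The authors deposited log2 expression values of 27179 NCBI gene IDs in 6 RNA-seq libraries, all in a single table. FastQC, HISAT2, featureCounts, limma and mm10 are named in the submitters' processing notes, while versions, strand setting and gene models are not given in the sources used. Back-transforming the deposited log2 CPM, which carry an offset of 0.5 reads, returned whole reads in 100.0% of cases (within 0.01, largest distance 0.0011). CPM in the text is these reads scaled to the effective library size. RefSeq GRCm38.p6 named 25275 IDs and left 1904 without a symbol, and exon lengths came from GENCODE M21.

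The 13018 genes at or above 1 CPM in 3 or more libraries entered a linear model in limma 3.58.1 (R 4.3.3, eBayes with a mean-variance trend, no block), adjusted by Benjamini-Hochberg. The alternatives tried are given in the closing section. Figures used matplotlib 3.10.9 in Python 3.11.15. No 2 libraries of a group agreed within sampling noise (chi-square per degree of freedom 38.91 to 53.53). Members and lists were chosen with earlier results of these data known. Values were given library by library for called members, the 3 highest of each family, non-overlapping members with a log2 fold change of at least 0.5 in size, and those beside the presence threshold. Of the regulators, the 3 of smallest p in each list are named. Some genes that these rules name are not reported here. Other members were added after their values were seen.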

Additional observations from a re-analysis of the deposited data

How the results depend on the processing

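Myl10 was called in all 23 alternative fits, with log2 fold changes from -1.24 to -1.08 and a highest limma adjusted p of 0.0356, without the trend. These fits changed the filter (none, or 5 CPM), the scaling (medians or quantiles), the offset (0.1, 1 or 5 CPM), the variance model (no trend, robust, voom, a replicate block) or the libraries (each left out, with the filter repeated or not). Called members numbered 1 lower and 0 higher in each, except without the trend, where 2 were lower (Myl10 and Myh14). With log2(CPM + 5) 1 regulator was called higher (Cnn3) and 1 lower (Tmod1), against 0 and 0. The cause was not tested.

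Of 43 genes followed, 32 had the same sign in each alternative. The other 11 changed sign when a library was left out, with ranges of -0.05 to 0.26 for Myo1f, -0.05 to 0.21 for Myo5a, -0.85 to 0.00 for Myo5c, -0.34 to 0.22 for Myl6b (0.14 and 0.22 where positive), -1.03 to 0.24 for Myl4, -0.03 to 0.07 for Myh9, 0.00 to 0.21 for Myo18a, -0.50 to 0.49 for Tnni3 (0.28 and 0.49 where positive), -0.84 to 0.12 for Tnni2, -0.02 to 0.07 for Actg1 and -0.12 to 1.25 for Myo6. None of these 11 was called in any fit. Without any 1 control library Myh14 no longer passes a repeated filter. Same-numbered libraries did not deviate together (correlations -0.02 to 0.02), so the numbers were not taken to pair the libraries. With the replicate block Myl10 had a log2 fold change of -1.15 (limma adjusted p = 0.00365), and 1 member was called lower and 0 higher. Where a library had 0 reads, levels under 0.0687 to 0.0814 CPM could not be detected, and whether depth limits the other low genes was not tested.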
